A study of Mus musculus with 6 samples.

Results

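Pcp2, Pcp4, Calb1, Itpr1, Car8, Rora, Foxp2 and Pvalb are genes by which Purkinje cells, the output neurons of the cerebellar cortex, are commonly recognized. Their expression was compared between the A+/G+ and A-/G+ cells sorted from the neonatal mouse cerebellum. The genes were chosen by name, and all probes of the array that carry 1 of the 8 gene names were taken. These are 14 of 55681 probes and 8 of 34836 gene names, and 13 of the 14 probes were well above background on at least 1 array.

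Purkinje cells are large GABAergic neurons that arise in the ventricular zone of the cerebellum and settle in a layer beside the Bergmann glia. Around birth they are grouped in clusters that spread into a single layer while their dendrites grow. They hold high levels of calcium-binding proteins and of the receptor that releases calcium from internal stores, and glutamate from parallel fibers raises calcium in their dendrites.

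The A+/G+ cells carry ACSA-2, an epitope on the protein encoded by Atp1b2, together with GLAST, the glutamate transporter encoded by Slc1a3, and A-/G+ cells carry GLAST without ACSA-2. All 6 samples, 3 of each fraction, came from wild-type animals labelled as CD1 and as postnatal days 1 to 3, whereas the methods name another strain background and an earlier age. Each sample held 50000 cells from pooled cerebella of either sex, and up to 50 ng of RNA was amplified. The labels call the samples of a fraction biological replicates. The isolation differed between the fractions. The A+/G+ cells were taken in a single step on ACSA-2, so that GLAST was not part of their selection. For the A-/G+ cells, antibodies against L1CAM, PSA-NCAM, CD45, Ter119 and ACSA-2 first removed neurons, leukocytes, erythrocytes and ACSA-2 positive cells, and GLAST positive cells were then retained. Since antibodies against neuronal antigens were used for A-/G+ alone, the removal of neurons and the fraction cannot be told apart. In these bulk samples, fewer Purkinje cells, less RNA per Purkinje cell and expression of these genes by other sorted cells cannot be told apart either.

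Each array is 1 sample hybridized with a single dye. Slide 1 held the 3 arrays of A+/G+ and slide 2 those of A-/G+, and the effect of the slide cannot be told apart from that of the fraction. The 75th percentile of the intensity was 329 to 332 on the A+/G+ arrays and 55.9 to 250 on the A-/G+ arrays, and 26469 to 26654 and 18336 to 24730 probes were well above background, respectively. Values are log2 intensities after quantile normalization, and each gene is represented by its brightest probe. A gene was called different when the Benjamini-Hochberg adjusted p of limma over all probes did not exceed 0.05 and the fractions' medians lay at least 4-fold apart. Where no array of a fraction had a probe well above background, its level there is known only as an upper limit. The limit of an array was the lowest signal that was well above background on it, or the signal of the probe itself if that was higher, and the mean of these limits gave the denominator of each "at least N-fold". A signal above that lowest one can still fail the flag, as Pcp2 did on replicate 1 of A-/G+ (5.76 against 5.64). Each "at least N-fold" therefore holds for this limit and for the quantile normalized values only. The levels of different probes cannot be compared with each other.

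Of the 8 genes, 4 were called higher in A+/G+. They were Pcp2, Pcp4, Calb1 and Car8, whereas 1.53% of all probes were called in this direction. Pvalb was the 1 gene called higher in A-/G+, a direction called for 0.399% of all probes. With the adjusted p alone, 5 genes were higher in A+/G+ and 1 was lower, compared with 4.65% and 4.64% of all probes. The fractions did not overlap, with A+/G+ on top, for 6 of the 8 genes, which held for 12.7% of all probes. The median difference of the 8 genes was 2.77 on the log2 scale, and 1.56 when the 3 genes with only a limit in A-/G+ were held at that limit, whereas the median over all probes was -0.04.

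**Figure D1:**
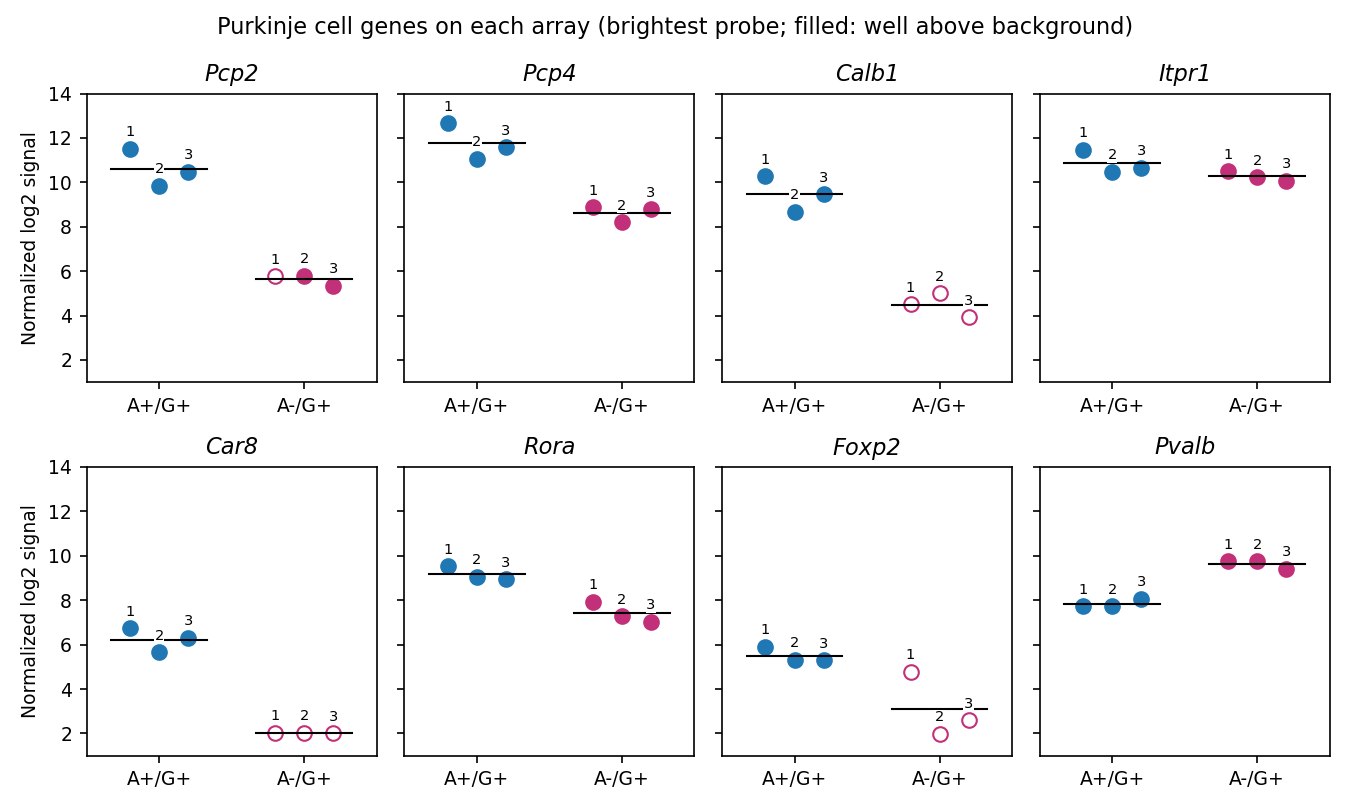
Normalized log2 signal (vertical axis) of the brightest probe of each of the 8 genes on the 3 A+/G+ and the 3 A-/G+ arrays (horizontal axis), with the replicate number above each point and a line at the mean. Filled points were well above background and open points were not. Pcp2, Pcp4, Calb1, Car8, Rora and Foxp2 do not overlap and are higher in A+/G+, Itpr1 overlaps, and Pvalb is higher in A-/G+.

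Pcp2 encodes a small protein with a GoLoco motif that binds G protein alpha subunits, and in the brain it is nearly specific to Purkinje cells. Its probe lies on the minus strand at chr8:3623377-3623436 of mm9. For replicates 1, 2 and 3 in this order, the log2 signal was 11.52, 9.85 and 10.48 in A+/G+ and 5.76, 5.80 and 5.34 in A-/G+. The lowest A+/G+ array was thus far above the highest A-/G+ array, and the signal in A-/G+ was still well above background on 2 of the 3 arrays, those of replicates 2 and 3. The means of 10.62 ± 0.84 and 5.63 ± 0.25 (SD, n = 3) differed by 4.99 (standard error 0.46, 95% interval 3.80 to 6.17, adjusted p = 0.00867 from limma), and the medians differed 26.3-fold. This call held when each array was left out in turn, with adjusted p from 0.0164 to 0.0478.

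Pcp4 encodes PEP-19, a small protein with an IQ motif that alters calcium binding by calmodulin. Pcp4 was measured on the plus strand at chr16:96747241-96747300 of mm9, with log2 signals of 12.65, 11.05 and 11.58 in A+/G+ and of 8.87, 8.20 and 8.78 in A-/G+. All 6 arrays were well above background and the fractions did not overlap. The means of 11.76 ± 0.81 and 8.62 ± 0.36 (SD, n = 3) differed by 3.14 (standard error 0.47, adjusted p = 0.0235 from limma), and the medians 6.96-fold. The call was lost without replicate 2 (adjusted p = 0.0530) or 3 of A+/G+ (0.0934) and without replicate 1 (0.0573) or 2 of A-/G+ (0.0682).

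The promoters of Pcp2 and Pcp4 are shown because both genes were higher in A+/G+ by the adjusted p of limma, as was the brighter probe of Rora. Rora encodes a nuclear receptor that binds the letters AGGTCA behind an AT-rich stretch. The sequences are from RefSeq on GRCm38.p6, reach from 250 bases before the annotated start up to it, and hold AGGTCA, or its reverse complement TGACCT, in capitals.
Pcp2 (chr8:3625548-3625797, minus strand): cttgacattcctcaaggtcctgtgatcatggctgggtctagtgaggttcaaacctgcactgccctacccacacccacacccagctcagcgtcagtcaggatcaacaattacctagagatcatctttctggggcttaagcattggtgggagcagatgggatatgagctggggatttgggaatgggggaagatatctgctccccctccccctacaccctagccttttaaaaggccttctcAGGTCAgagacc
Pcp4 (chr16:96467356-96467605, plus strand): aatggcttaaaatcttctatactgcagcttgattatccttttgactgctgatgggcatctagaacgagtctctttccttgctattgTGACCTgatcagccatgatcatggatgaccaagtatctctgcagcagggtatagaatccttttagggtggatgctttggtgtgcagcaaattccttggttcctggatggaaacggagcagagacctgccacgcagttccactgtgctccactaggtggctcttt
Pcp2, downstream start (30 bases around the match, within chr8:3624987-3625286, minus strand): ggagtcaggggcAGGTCAgggaaggagact

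In Pcp2 the match of the first sequence starts at position -12 relative to the start site, and that before the downstream start at -26. In Pcp4 it lies on the opposite strand at -164. RefSeq windows from 250 bases before to 50 bases after a start were at hand for Pcp2, Pcp4, Rora and Pvalb. Of these 4 genes, Pcp2 and Pcp4 held AGGTCA on either strand, and the windows of Rora and Pvalb did not. The same letters occur in at least 1 window of 18.1% of 27025 genes, and in 16.3% of 32851 windows. The longer form TAGGTCA, which contains them, occurs in 2.61% of all windows and in none of the 8 windows of these genes. The letters directly before the printed Pcp2 matches are cttctc and aggggc, and the AT content before a match was not scored. A match describes letters only and does not show binding.

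Calb1 encodes calbindin, a calcium buffer that fills the soma and dendrites of Purkinje cells. Its brighter probe, on the plus strand at chr4:15835078-15835137 of mm9, gave 10.27, 8.68 and 9.46 in A+/G+ and 4.51, 5.01 and 3.93 in A-/G+. No A-/G+ array was well above background, whereas all A+/G+ arrays were. Calb1 was higher at least 23.9-fold in A+/G+, and the fitted difference was 4.98 (standard error 0.50, adjusted p = 0.0105 from limma). It missed the limit without replicate 3 of A+/G+ (adjusted p = 0.0571). The other Calb1 probe, at chr4:15833582-15833641, was also called, with mean log2 signals of 4.64 ± 0.68 and 2.16 ± 0.35 (SD, n = 3) and an adjusted p of 0.0282. No fold is given for it, since no A-/G+ array was well above background and the limit there exceeded its A+/G+ mean.

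Car8 encodes a carbonic anhydrase related protein that has lost the enzymatic activity and binds the IP3 receptor of Purkinje cells. The brighter probe lies on the minus strand at chr4:8068657-8068716 of mm9. The log2 signal was 6.73, 5.65 and 6.30 in A+/G+ and 2.04, 2.03 and 2.01 in A-/G+. Car8 was thus well above background on every A+/G+ array and on no A-/G+ array. It was higher at least 2.56-fold in A+/G+, and the fitted difference was 4.20 (standard error 0.29, adjusted p = 0.00498 from limma). Both Car8 probes were called, and the other one was at least 1.77-fold higher. The call of the brighter probe held when each array was left out in turn, with adjusted p from 0.0105 to 0.0320.

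Itpr1 encodes the type of IP3 receptor that releases calcium from the endoplasmic reticulum and is most abundant in Purkinje cells. On the plus strand at chr6:108501025-108501084 of mm9 its log2 signal was 11.48, 10.48 and 10.66 in A+/G+ and 10.51, 10.23 and 10.08 in A-/G+. All arrays were well above background and the fractions overlapped, since replicate 2 of A+/G+ was below replicate 1 of A-/G+. The means differed by 0.60 (standard error 0.30, 95% interval -0.17 to 1.38, adjusted p = 0.333 from limma). The interval includes 0.

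Pvalb encodes parvalbumin, a calcium buffer that Purkinje cells share with interneurons of the molecular layer. The brighter probe, on the minus strand at chr15:78021951-78022010 of mm9, gave 7.73, 7.73 and 8.06 in A+/G+ and 9.75, 9.76 and 9.42 in A-/G+. The lowest A-/G+ array exceeded the highest A+/G+ array, and all arrays were well above background. The means of 7.84 ± 0.19 and 9.64 ± 0.20 (SD, n = 3) differed by -1.81 (standard error 0.15, adjusted p = 0.00707 from limma). The medians lay 4.07-fold apart, just past the 4-fold limit. Without replicate 1 or 2 of either fraction the difference was -1.75 and the size fell short of that limit, while the adjusted p stayed at or below 0.0410 with every array left out. The other Pvalb probe, at chr15:78021549-78021608, was higher in A-/G+ by a smaller amount. Its difference was -1.57 (adjusted p = 0.0414 from limma) and its medians lay 2.72-fold apart, so that it was not called.

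Among the transcription factors, Rora encodes the nuclear receptor that Purkinje cells need for maturation and survival. The brighter probe lies on the plus strand at chr9:69226774-69226833 of mm9. The log2 signal was 9.54, 9.05 and 8.95 in A+/G+ and 7.93, 7.27 and 7.02 in A-/G+. The fractions did not overlap and all arrays were well above background. The difference of 1.77 (standard error 0.30) had an adjusted p of 0.0320 from limma, and the 3.44-fold ratio of the medians fell short of the size limit. Its adjusted p rose to 0.102, 0.112 and 0.0997 without replicate 1, 2 or 3 of A+/G+ and to 0.0909 without replicate 2 of A-/G+. A second Rora probe is annotated to a separate transcript and lies far upstream on the same strand, at chr9:68511835-68511894. It gave 4.95, 4.16 and 4.81 in A+/G+ and 5.19, 5.36 and 5.28 in A-/G+. Here all A-/G+ arrays were higher, in the direction opposite to that of the brighter probe, with a difference of -0.64 (standard error 0.23, adjusted p = 0.179 from limma).

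Foxp2 encodes a forkhead repressor that Purkinje cells express from early in their development. The brightest of its 3 probes lies on the plus strand at chr6:15391821-15391880 of mm9. The log2 signal was 5.92, 5.32 and 5.29 in A+/G+ and 4.77, 1.99 and 2.59 in A-/G+. No A-/G+ array was well above background, and replicate 1, on the dimmest array, was the highest of the fraction. Foxp2 was higher at least 1.55-fold in A+/G+, but the difference of 2.39 (standard error 0.78, 95% interval 0.37 to 4.41) did not pass the test (adjusted p = 0.150 from limma). It passed, with an adjusted p of 0.0238, once replicate 1 of A-/G+ was left out. A probe that bridges an exon junction, with ends 1172 bases apart at chr6:15363873-15365044, gave a difference of 1.04 (adjusted p = 0.381 from limma) and was well above background in A+/G+ alone. The remaining probe, at chr6:15147188-15147247, was well above background on none of the 6 arrays.

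The probes of the separate Rora transcript and of the Foxp2 junction are shown because they measure other parts of these genes than the brightest probes. No letters are in capitals, and positions are on mm9.
Rora (chr9:68511835-68511894, plus strand): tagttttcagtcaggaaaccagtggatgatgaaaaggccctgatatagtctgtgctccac
Foxp2 (chr6:15363873-15365044, plus strand): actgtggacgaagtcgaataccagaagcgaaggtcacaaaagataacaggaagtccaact

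**Figure D2:**
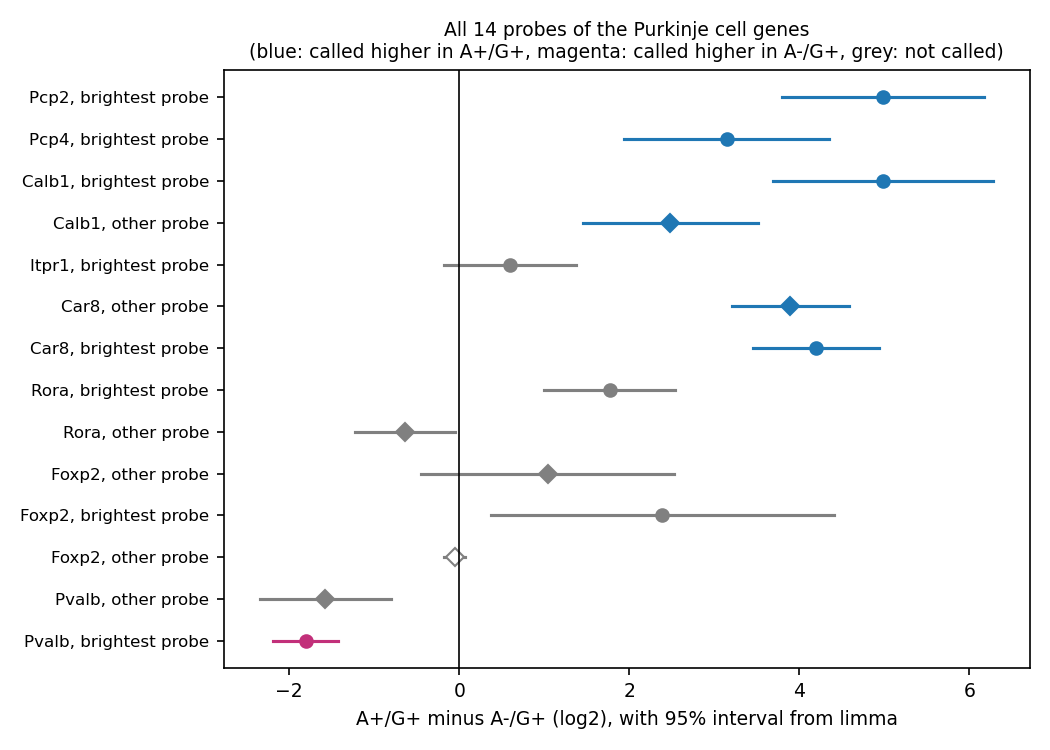
Mean log2 signal of A+/G+ less that of A-/G+ (horizontal axis) with the 95% interval of limma for each of the 14 probes (vertical axis). Circles are the brightest probe of a gene and diamonds the others, and the open diamond marks a probe well above background on no array. Pcp2, Pcp4, both Calb1 and both Car8 probes were called higher in A+/G+, 1 Pvalb probe was called higher in A-/G+, and the Rora probes lie on opposite sides of 0.

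For every probe whose fractions did not overlap, the two-sided exact permutation test gave p = 0.1, which is the lowest value possible with 3 arrays a fraction. Of the 5 genes with more than 1 probe, the probes of Rora lay on opposite sides of 0, whereas those of Calb1, Car8 and Pvalb, and the 2 Foxp2 probes with signal well above background, each pointed the same way.

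The A+/G+ arrays differed among themselves in most of these genes. Replicate 1 was the highest A+/G+ array for 7 of the 8 genes, all but Pvalb, whereas it was the highest for 36.9% of 25094 probes, all those well above background in each A+/G+ sample. Replicate 1 exceeded replicate 2 by 1.67 for Pcp2, 1.60 for Pcp4, 1.59 for Calb1 and 1.08 for Car8 on the log2 scale. A step of at least 1, a size chosen after the values were seen, was thus found in 4 of the 8 genes and in 183 of the 25094 probes (0.729%). The steps of Itpr1, Foxp2 and Rora were 0.99, 0.60 and 0.49, and Pvalb was equal on the pair of arrays. Among 10 astroglial genes, replicate 1 was the highest for 4 and exceeded replicate 2 by at least 1 for 0. Among 15 general neuronal genes it was the highest for 14 and exceeded replicate 2 by at least 1 for Nefl, with a step of 1.02. Replicate 1 was also the highest for all 6 markers of microglia and blood, with steps over replicate 2 of 1.15 for Cx3cr1 and 1.18 for Csf1r. The part of these cells in the spread of the Purkinje cell genes was not tested. The 3 arrays were alike in intensity and in the number of probes above background.

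**Figure D3:**
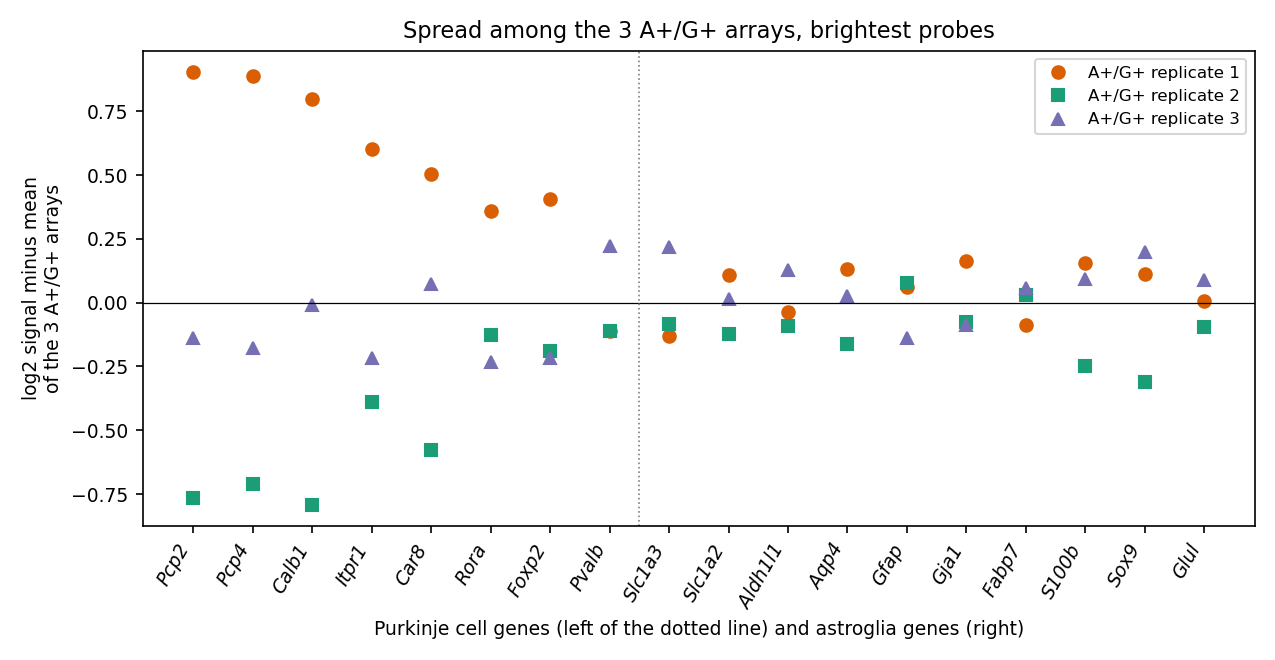
Normalized log2 signal of each A+/G+ array minus the mean of the 3 A+/G+ arrays (vertical axis) for the 8 Purkinje cell genes and 10 astroglial genes (horizontal axis). Replicate 1 is the highest and lies 0.49 to 1.67 above replicate 2 in all Purkinje cell genes but Pvalb, where the points of both coincide, while it is the highest in 4 of the 10 astroglial genes.

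Among the A-/G+ arrays, replicate 3 was the lowest for 6 of the 8 genes, and replicate 1 was the highest for 5. The share of all probes with such an order was not determined. Calb1, Car8 and Foxp2 were not well above background on these arrays, so that their order there cannot be read. Of the 4 genes that each A-/G+ array had well above background, which were Pcp4, Itpr1, Rora and Pvalb, replicate 3 was the lowest for 3 and replicate 1 the highest for 3.

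The wider set of Purkinje cell and calcium signaling genes was read from 3 further lists. Of their 38 genes, 9 were called higher in A+/G+ and 0 lower, in directions called for 1.53% and 0.399% of all probes. By the adjusted p of limma alone 12 were higher and 1 was lower in A+/G+, compared with 4.65% and 4.64% of all probes. At an unadjusted p of at most 0.05, 20 were higher and 5 lower, compared with 10.7% and 12.6% of all probes. The median difference over the 38 genes was 0.78, smaller than that of the 8 genes above. Replicate 1 of A+/G+ exceeded replicate 2 by at least 1 for Skor2, Itpka, Atp2b2, Gad1 and Gad2. The number called fell to 3 without replicate 3 of A+/G+, to 4 without replicate 2 of A-/G+ and to 5 without replicate 1 or 2 of A+/G+.

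Of 13 other genes with known roles in Purkinje cells, 6 were called higher in A+/G+. Dner, a Notch ligand on Purkinje cells that signals to Bergmann glia, was higher by 3.34, with an SD of 0.20 among the A+/G+ and 0.09 among the A-/G+ samples (n = 3, adjusted p = 0.00257 from limma). Rgs8, a regulator of G protein signaling, was at least 4.33-fold higher (adjusted p = 0.0153). Gng13, a G protein gamma subunit, was at least 1.35-fold higher (adjusted p = 0.0280). The vesicular GABA transporter Slc32a1 and the GABA-synthesizing enzyme Gad1, which other inhibitory neurons also express, differed by 2.84 (adjusted p = 0.0224) and 2.69 (adjusted p = 0.0181), and the glutamate transporter Slc1a6 by 1.95 (adjusted p = 0.0154). Of the A-/G+ arrays, that of replicate 3 alone had Gad1 well above background, so that its difference rests partly on dim values. Aldoc, the antigen of zebrin stripes that astrocytes also express, was higher by 1.35 (adjusted p = 0.0175) but 2.47-fold in medians. Gad2, another enzyme of GABA synthesis, and Mtss1 did not pass with their brightest probes, with differences of 1.28 and -0.65 (adjusted p = 0.240 and 0.0603). A second Mtss1 probe passed the adjusted p (difference -0.90, adjusted p = 0.0304) but not the size limit, and no array had Shh or Ppp1r17 well above background.

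In the pathway that leads to IP3 and calcium, 2 of 16 genes were called higher in A+/G+, and the median difference was 0.63. Itpka, the kinase that converts IP3 to its next phosphorylated form, averaged 9.28 ± 0.52 and 5.36 ± 0.22 (SD, n = 3) on the log2 scale in A+/G+ and A-/G+, respectively, a difference of 3.92 (adjusted p = 0.00585 from limma). The calcium release channel Ryr1 was higher by 1.13 (adjusted p = 0.0424), below the size limit. Atp2a3, a calcium pump of the endoplasmic reticulum, differed by 2.64 (adjusted p = 0.173). Of the A-/G+ arrays, that of replicate 3 alone had Atp2a3 well above background.

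Of 9 factors of the Purkinje lineage and genes of the reelin pathway, Skor2, a corepressor of Purkinje progenitors and neurons, was called higher in A+/G+. It was at least 1.98-fold higher (adjusted p = 0.0183 from limma). Lrp8, a receptor for reelin, was higher by 0.77 (adjusted p = 0.0233). Ebf2, another factor of the Purkinje lineage, differed by 2.42 (adjusted p = 0.0626), and Dab1, which carries the reelin signal into the cell, by -0.93 (adjusted p = 0.0695). Of the 3 other Dab1 probes, 2 passed the adjusted p with differences of -1.12 and -1.18 (adjusted p = 0.0454 and 0.0356), below the size limit. The early factors Lhx1 and Lhx5 differed by 0.21 and 0.05 (adjusted p = 0.741 and 0.966).

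Of 14 paralogs of the 8 genes, 1 was called, in a direction called for 1.53% of all probes. Car10, which like Car8 lacks the activity of a carbonic anhydrase, showed a difference of 2.48 in favor of A+/G+ (adjusted p = 0.0250 from limma), while its 3 other probes were not called. Foxp1 was higher by 0.62 (adjusted p = 0.0349), whereas its 4 other probes did not pass and 2 of them had the opposite sign. Itpr2 and Itpr3 differed by 0.39 and 1.02 (adjusted p = 0.375 and 0.0629), Rorb by 0.23 (adjusted p = 0.393) and Pcp4l1 by -1.39 (adjusted p = 0.0617). Calb2 and Ocm, the relatives of Calb1 and Pvalb, were well above background on none of the arrays.

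**Figure D4:**
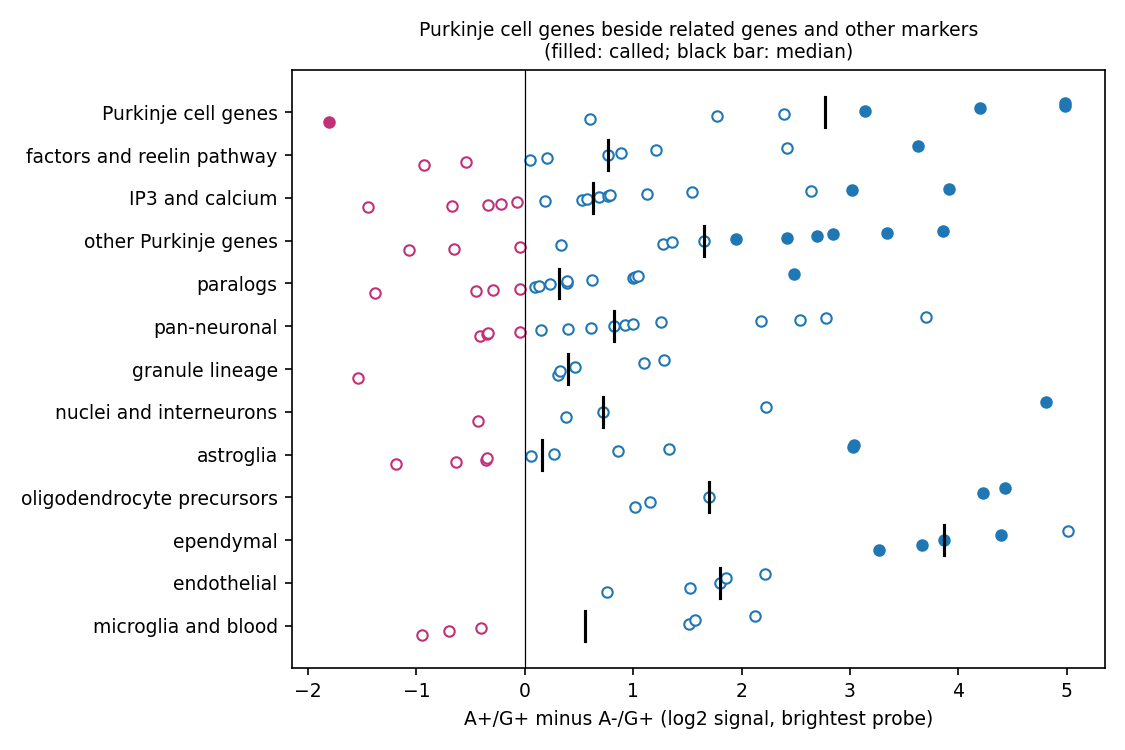
Mean log2 signal of A+/G+ less that of A-/G+ (horizontal axis) for the brightest probe of each gene in the 8 Purkinje cell genes and 12 further lists (vertical axis). Filled points were called, open points were not, and black bars are medians. The median is 2.77 for the Purkinje cell genes, 0.83 for general neuronal genes, 0.16 for astroglia and 3.87 for ependymal genes.

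General neuronal markers were compared because the A-/G+ cells were depleted of neurons. The number called was 0 of 15 with limma, whereas 1.53% of all probes were called higher in A+/G+ and 0.399% lower. An adjusted p within the limit was found for 0, compared with 4.65% and 4.64% of all probes, and the methods' t-test also called 0. At an unadjusted p of at most 0.05 limma gave 5 higher in A+/G+ and 1 lower, compared with 10.7% and 12.6% of all probes. The median difference was 0.83, which became 0.42 without replicate 1 and 1.09 without replicate 3 of A-/G+, and 12 of the 15 genes were well above background on all 6 arrays. Replicate 3 was the highest A-/G+ array for 11 of the 15. It was also the brightest A-/G+ array before normalization, with a 75th percentile of 250 against 55.9 and 112. The share of all probes that were highest on it was not determined, so that the counts below compare lists only. Tubb3, a tubulin of neurons, gave 11.63, 10.96 and 10.87 in A+/G+ and 9.58, 9.41 and 11.47 in A-/G+, so that replicate 3 alone lay in the range of A+/G+. Replicate 3 was the highest A-/G+ array for 0 of the 8 Purkinje cell genes, of which only 4 passed the background flag on each array there. Dim genes included, it was the highest for 6 of the 9 Purkinje lineage and reelin genes and 8 of the 16 IP3 and calcium genes. For the 13 other Purkinje cell genes this number was 3, and for the 10 astroglial genes it was 0. The contrast with the general neuronal genes was thus neither shared by all Purkinje cell lists nor particular to them. The summed level of the 15 general neuronal genes, the log2 of the sum of linear signals, was 14.36 to 14.99 in A+/G+ and 14.01 to 14.47 in A-/G+. The neurofilament genes Nefl and Nefm and the adhesion molecule L1cam, an antigen of the depletion, had differences of 3.70, 2.78 and 2.54 (adjusted p = 0.0760, 0.0870 and 0.0968 from limma). Nefl and Nefm were well above background on 2 of the A-/G+ arrays and L1cam on 1. Summed levels rest mostly on the brightest probes of a list.

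Among other neurons of the cerebellum, limma and the methods' t-test called 0 of 6 genes of the granule lineage. At an unadjusted p of at most 0.05 limma gave 1 lower in A+/G+ and 0 higher, compared with 12.6% and 10.7% of all probes. A+/G+ had the higher mean for 5 of the 6. The median difference of the 6 was 0.39, which became 1.10 without replicate 3 of A-/G+, and the summed level was 11.28 to 11.68 in A+/G+ and 11.48 to 12.24 in A-/G+. The gene that passed, Pax6, was higher in A-/G+ with a difference of -1.54 (adjusted p = 0.00730 from limma). Of 5 markers of the cerebellar nuclei and of interneurons, Meis2 was called higher in A+/G+ (difference 4.81, adjusted p = 0.0187 from limma). This direction was called for 1.53% of all probes. Meis2 was well above background on 1 of the 3 A-/G+ arrays, so that its difference rests partly on dim values. No array had Pax2, a marker of the interneuron precursors, well above background.

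Markers of other cell types moved with the fraction as well. Over all probes, 1.53% were called higher in A+/G+ and 0.399% lower. Of 5 ependymal genes, 4 were called higher in A+/G+, with a summed level of 11.72 to 12.44 against 7.63 to 8.99 in A-/G+. Of 5 genes of oligodendrocyte precursors, Olig1 and Olig2 were called, and the summed level was 13.62 to 13.90 against 10.13 to 11.13. Of 5 endothelial and 6 microglial and blood genes limma and the methods' t-test called 0. At an unadjusted p of at most 0.05 by limma, 1 and 2 were higher in A+/G+, compared with 10.7% of all probes. The summed levels were 12.69 to 13.28 and 13.26 to 14.13 in A+/G+ against 10.30 to 12.74 and 11.98 to 13.15 in A-/G+. The part of these cell types in the differences of the Purkinje cell genes was not tested. Of 10 astroglial genes, all well above background on all 6 arrays, Gfap and Gja1 were called higher in A+/G+. S100b was higher by 1.33 (adjusted p = 0.0352 from limma) and Aldh1l1 lower with a difference of -0.64 (adjusted p = 0.0452), both below the size limit. The fractions did not overlap for 3 genes in each direction. With A+/G+ on top this held for 12.7% of all probes, and the share for the other direction was not determined. The summed levels of 17.14 to 17.27 and 17.02 to 17.68 overlapped. Of the antigens used in the isolation, Atp1b2 showed a difference of 2.16 (adjusted p = 0.00725 from limma), and Slc1a3 differed by -1.19 (adjusted p = 0.0733).

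The genes with profiles most like those of Pcp2, Pcp4 and Calb1 were sought over the 6 arrays among 19852 named probes that all A+/G+ arrays had well above background. Likeness was the root mean square distance between log2 profiles, each centered on its own mean. Calb1 was nearest to Pcp2 at 0.20, and Pcp2 nearest to Calb1. Next to both were Cck, which encodes the neuropeptide cholecystokinin, and Fam227b. Their distances were 0.37 and 0.39 from Pcp2 and 0.45 and 0.45 from Calb1. Nearest to Pcp4 were Gad1 at 0.28, Slc27a2 at 0.30 and Ecel1 at 0.31. Since the search required signal in A+/G+ and started from called genes, the direction of these genes is part of the choice. The distances include A-/G+ values that were not well above background for Calb1, Cck, Fam227b, Slc27a2 and Ecel1.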

How the data were processed

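The authors deposited the scanner output of 6 one-color Agilent arrays, in which Feature Extraction 10.7.3.1 gives each spot an intensity after background correction. They also deposited a log2 table of quantile normalized values, which was used as an alternative. Here, without control spots and those the scanner software marks as outliers, log2 intensities were quantile normalized, spots of 1 probe were averaged, and the fractions were compared over 55681 probes with limma 3.58.1 in R 4.3.3. The paper's methods use Student's test with the same limits. Gene names and mm9 positions come from the annotation of the array, and whether a probe lies in an exon or UTR was not determined. The genes and lists were chosen with earlier results of these data known. All 8 genes are named. Of each other list, genes past both limits are named and, where fewer than 4 passed, up to 4 in order of the difference, with others named by their role after the values were seen. Some genes counted in these lists are not reported here by name. The fit was tested on simulated data, where limma called 65.5% of 200 probes changed by 3 (log2) among 55681, with 0 false calls. The p-values measure the spread between the samples, and 3 arrays per fraction limit the precision.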

Additional observations from a re-analysis of the deposited data

How the results depend on the processing

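None of the 8 genes changed direction under 11 alternative settings or when each of the 6 arrays was left out. Settings that alter only the test, the filter or the size limit keep the same differences and could not change a direction. The values were recomputed only with the shift to the 75th percentile, normexp, the authors' table, outlier spots kept and the mean of all probes. The number of Purkinje cell genes called higher in A+/G+ was 2 to 4 with each array left out, 2 without replicate 3 of A+/G+, and the number with an adjusted p within the limit was 3 to 6. Of the 38 other genes, 3 to 11 were called higher in A+/G+ and 0 were called lower with each array left out, 3 with normexp background correction, and 1 was called higher in A-/G+ with a 2-fold or no size limit. The number of the 8 genes called higher in A-/G+, which is 1 for Pvalb, was 0 to 1 with each array left out. It was 0 with a shift to the 75th percentile, with normexp, with the authors' table, with the mean of all probes and with the replicate block, in the first 4 because the medians of Pvalb lay under 4-fold apart. With the replicate number as a block, limma called 0 of the 8 genes, with 0 adjusted p within the limit (0.0630 at the lowest), and 0 of the other 38, although at an unadjusted p of at most 0.05 the block gave 7 and 17 genes higher in A+/G+ and 1 and 6 lower, compared with 9.62% and 11.3% of all probes. No probe of the array passed with the block, where the lowest adjusted p was also 0.0630. Deviations from the fraction means correlated at r = 0.20, 0.11 and -0.11 between same-numbered arrays over 17949 probes. Between differently numbered arrays r was -0.24 to 0.17. With 3 arrays a fraction these values cannot decide whether the samples were paired. The numbers were not taken to pair them. The methods' t-test called 3 of the 8 genes higher in A+/G+, without Pcp4 (adjusted p = 0.0605). In that test Rora also missed the limit of the adjusted p (0.0737). Normexp, which adds an offset of 50, lowered the differences of Car8 to 1.30 and Calb1 to 3.13, with the median of the 8 genes at 1.39. The medians of Calb1 then lay 9.10-fold apart, under the 23.9-fold given above. The mean of all probes lowered that of Rora to 0.57 (adjusted p = 0.183). The shift to the 75th percentile moved the median of all probes to -1.02, and the astroglial median to -0.07, while Pcp2, Pcp4 and Calb1 stayed at 4.90, 3.14 and 4.84. Signal over background limits the A-/G+ values of Calb1, Car8 and Foxp2, and the slide could not be fitted as a block.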
